A study of Homo sapiens with 12 samples.

Results

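The 57 DNA damage response and repair genes described here were taken by gene name from a table of read counts for 63677 genes, and each had enough reads to be tested. They had been assigned to 10 pathways: damage kinases and checkpoint (4 genes), break-site chromatin (5), homologous recombination (13), end joining (5), base excision and single-strand breaks (9), nucleotide excision (9), mismatch repair (2), the Fanconi anaemia pathway (3), topoisomerases and adduct removal (5) and translesion synthesis (2). The counts came from cultures of Huh7, a line derived from a human liver carcinoma, in 4 groups of 3 samples. These were untreated cells in medium only and cells treated for 6 h with graphene oxide (GO) at 400 µg/mL, with GO carrying ginsenoside Rg3, a saponin of ginseng (GO-Rg3), at 400 µg/mL, or with GO-Rg3 loaded with doxorubicin (GO-Rg3-DOX) at 100 µg/mL. GO and GO-Rg3 were therefore given at equal dose, whereas GO-Rg3-DOX was given at a lower dose of carrier. The cells are a single carcinoma line that carries a mutant p53, and the labels do not say whether samples of a group came from separate cultures, so p-values measure the spread between these samples, which may be technical. Free DOX was not analysed here.

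Cells repair DNA by several routes that depend on the lesion. The kinases ATM and ATR sense breaks and stalled replication, proteins that gather on the chromatin around a break mark it, and the break is then joined directly (end joining) or copied from the sister chromatid (homologous recombination). Damaged bases are removed by base excision, bulky adducts by nucleotide excision, replication errors by mismatch repair and interstrand crosslinks with the help of the Fanconi anaemia proteins, while translesion polymerases copy past lesions that remain. DOX intercalates into DNA and traps topoisomerase II on cut DNA, so the enzymes that cut DNA and those that remove trapped protein are listed with the repair genes.

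All 8 hepatocyte markers examined, among them ALB and AFP, were at 1 CPM or more in every group. Their summed level was 23138 to 23270 counts per 1000000 (CPM, scaled by TMM factors, which assume that most genes are alike between samples) in untreated cells, 14466 to 17532 after GO, 17877 to 21435 after GO-Rg3 and 30215 to 35485 after GO-Rg3-DOX. The sum was mostly AFP and ALB, and its members did not all move with it: HNF4A was at 352 to 378 CPM in untreated cells, at 545 to 574 after GO and at 158 to 209 after GO-Rg3-DOX, and SERPINA1 was at 1545 to 1612 CPM and at 1840 to 2344 after GO. The 4 leukocyte markers summed to 1.25 to 1.72 CPM in untreated cells and to 3.25 to 3.81 after GO-Rg3-DOX, the 4 fibroblast markers to 2.03 to 2.70 and 4.88 to 5.77, and the 4 endothelial markers to 0.283 to 0.448 and 0.496 to 0.700, with PECAM1 and KDR at 0 in every sample. Total counts were 27802871 to 38877420 per sample. Mitochondrial genes took 5.31% to 6.28% of the counts in untreated cells and 6.89% to 7.42% after GO-Rg3, against 12.1% to 24.1% after GO and 12.8% to 19.4% after GO-Rg3-DOX. GO replicate 1, at 24.1%, stood apart from the other 2 GO samples, and the values without it are given with the results for GO. The TMM factors were 1.09 to 1.10 in untreated cells and 0.737 to 0.863 after GO-Rg3-DOX. The part that these shifts play in the results below was not tested, except where a value under another scaling is given.

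**Figure D1:**
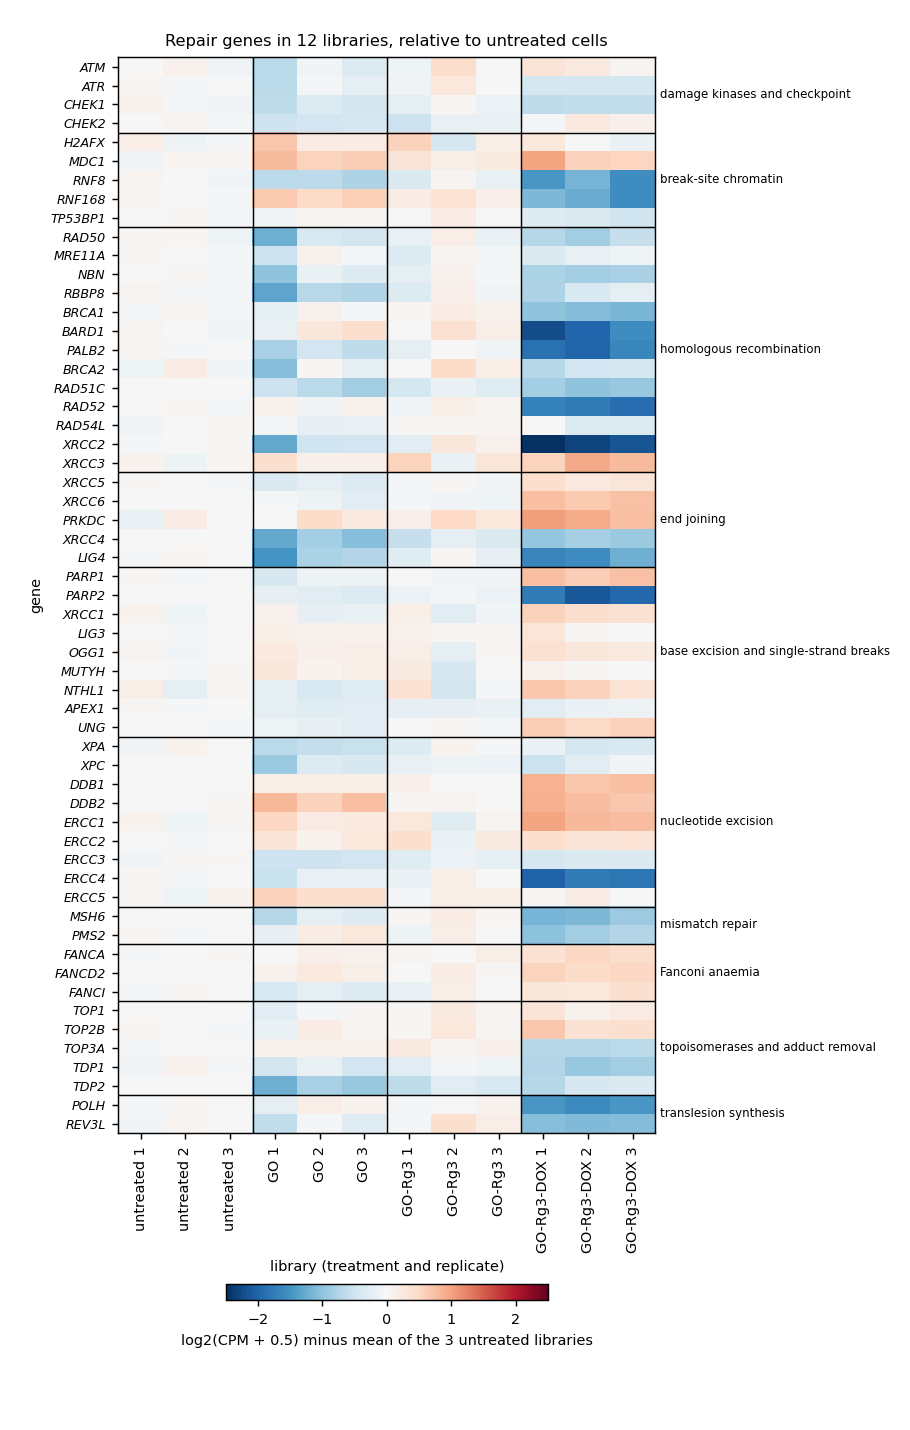
Each row is 1 of the 57 genes, grouped by pathway, and each column is 1 of the 12 samples. Colour gives log2(CPM + 0.5) minus the mean of the 3 untreated samples, with blue for lower and red for higher, so that the 3 GO-Rg3 columns stay pale while the 3 GO-Rg3-DOX columns hold the deepest blue, at XRCC2, BARD1, PALB2, RAD52, PARP2 and ERCC4.

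In untreated cells the genes spanned a wide range of levels. Levels between genes were compared as mean untreated CPM per kilobase of transcript. The highest was XRCC6, the Ku70 subunit that binds broken ends, at 366 CPM per kilobase, followed by APEX1, the endonuclease of abasic sites, at 179.7, XRCC5, the Ku80 subunit, at 177 and DDB1, an adaptor of ubiquitin ligases, at 162. The lowest were POLH (1.46), ERCC5 (1.51), REV3L (1.56), ERCC4 (1.97) and BRCA2 (1.99). APEX1 and XRCC5 did not differ by more than the spread of their samples. The median of the 57 genes was 11.2 CPM per kilobase, and the smallest count of any of them in any sample was 63.

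GO-Rg3-DOX changed most of these genes. Of the 57, 15 rose and 24 fell at an adjusted p below 0.01, by the quasi-likelihood test of edgeR with p-values adjusted over the 17092 genes tested (Benjamini-Hochberg), and 18 did not pass. Over all genes tested the same rule called 25.5% higher and 30.5% lower, against 26.3% and 42.1% of the repair genes. A fall of more than 1 on the log2 scale was met by 13 of the 57 genes (22.8%), where 18.2% of all genes met it. No repair gene rose by that much, where 12.6% of all genes did. The median log2 fold change was -0.28 for the 57 genes and -0.06 for all genes, and the values of the repair genes ran from -2.44 to 0.91. In bulk RNA, fewer cells and less RNA per cell cannot be told apart.

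The split between rises and falls depended on the scaling. With library totals alone in place of TMM factors, the median of all genes moved from -0.06 to -0.47, 4 repair genes were higher and 31 lower, and rises made up 22.8% of the calls over all genes instead of 45.5%. Relative to the median of all genes, the repair genes lay 0.23 lower with TMM factors and 0.22 lower with library totals. These scalings apply a single factor per sample, which moves all genes nearly alike, so this gap could hardly differ between them. The 4 that were still higher were XRCC6, DDB1, DDB2 and ERCC1, while XRCC5 (-0.09) and FANCI (-0.10) changed sign without passing the test. With an offset for the GC content of transcripts, 18 were higher, 21 were lower, and TDP2 (0.02) changed sign. Over all 17092 genes tested, that offset gave 5306 higher and 4759 lower. A fall of more than 1 on the log2 scale was then met by 9 repair genes instead of 13. Relative to the median of all genes, the repair genes lay 0.13 lower with the offset. Of the 18 genes that did not pass with TMM factors, 8 passed with the GC offset: ATM, CHEK2, MRE11A (0.35), LIG3 (0.28) and TOP1 were higher, and H2AFX, RAD54L (-0.28) and MUTYH (-0.37) were lower. With library totals 7 passed, all lower: ATR, RBBP8 (-0.85), BRCA2 (-0.97), RAD54L (-0.65), APEX1 (-0.60), XPA (-0.75) and XPC (-0.69). With relative log expression (RLE) factors 3 passed, all higher: OGG1 (0.37), NTHL1 (0.63) and ERCC2 (0.44). Where a gene is said below not to pass, with no scaling named, the fit with TMM factors is meant.

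**Figure D2:**
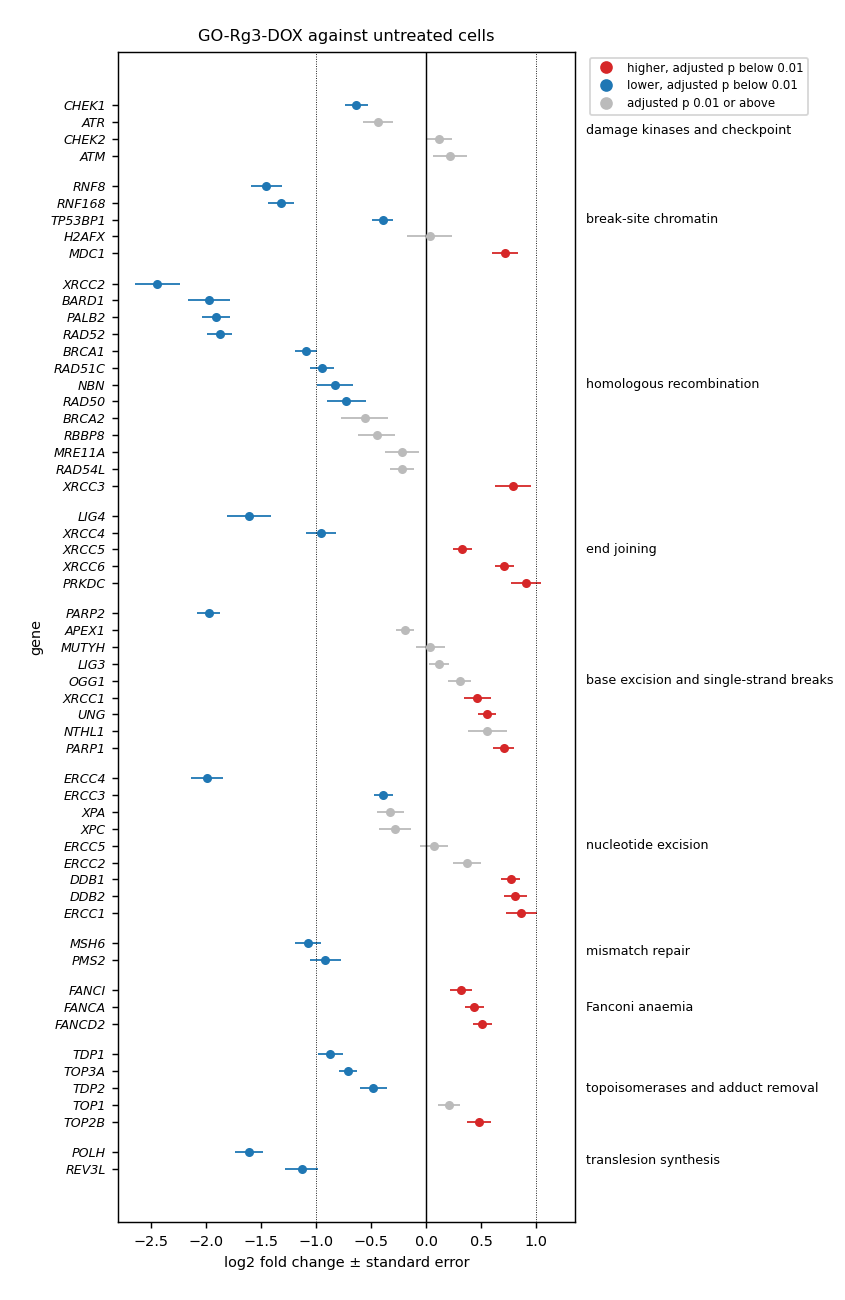
Log2 fold change after GO-Rg3-DOX against untreated cells for each of the 57 genes, with its standard error as a bar, by pathway. Red and blue mark genes higher and lower at an adjusted p below 0.01, grey marks the other 18, and dotted lines stand at a log2 fold change of -1 and 1; 13 blue points lie left of -1 and no red point lies right of 1.

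In homologous recombination 8 of 13 genes fell and 1 rose, and XRCC2 had the largest fall of the 57. XRCC2, which acts in the repair of breaks by recombination (chromosome 7, 152341861 to 152373278, GRCh37), stood at 30.8, 32.2 and 32.4 CPM in the untreated samples and at 4.82, 5.97 and 6.71 CPM after GO-Rg3-DOX. That was a 5.44-fold fall (log2 fold change -2.44, SE 0.21, adjusted p = 8.31e-08), and the groups were far apart. BARD1, the partner of BRCA1 in a ubiquitin ligase (chromosome 2, 215590370 to 215674407), went from 22.6, 21.5 and 20.6 to 4.24, 5.10 and 7.05 CPM (log2 fold change -1.98, SE 0.19, adjusted p = 2.67e-07). PALB2, which bridges BRCA1 and BRCA2 (chromosome 16, 23614481 to 23652642), went from 22.9, 20.9 and 21.6 to 5.64, 5.10 and 6.67 CPM (log2 fold change -1.91, SE 0.13, adjusted p = 8.24e-09). RAD52, a strand annealing protein, fell from 18.1, 18.9 and 17.6 to 5.31, 5.07 and 4.50 CPM (log2 fold change -1.88, SE 0.11, adjusted p = 2.61e-09). In each of these 4 genes every treated sample lay below every untreated sample.

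The other falls in the pathway were smaller, and these genes were named after their values were seen. BRCA1, which directs the resection of break ends, stood at 50.2, 54.0 and 50.1 CPM in untreated cells and at 25.4, 24.0 and 22.9 CPM after GO-Rg3-DOX (log2 fold change -1.10, SE 0.10, adjusted p = 2.06e-07). RAD51C, which acts in the same pathway as XRCC2, had a log2 fold change of -0.95, and NBN and RAD50, subunits of the complex that first binds and trims break ends, had -0.83 and -0.73. With the GC offset, NBN (-0.20) and RAD50 (-0.28) no longer passed. The third subunit of that complex, MRE11A (-0.22), its partner RBBP8 (-0.45), BRCA2 (-0.56) and RAD54L (-0.22) did not pass the test. Only XRCC3, a partner of RAD51C, was higher among the 13, at 23.6, 31.2 and 28.1 CPM against 16.9, 14.6 and 16.4 CPM (log2 fold change 0.79, SE 0.17, adjusted p = 0.000606). Its exons lie under those of KLC1 on the other strand over 76.7% of their length, and since the counting's use of strand is not given in the sources used here, its count is uncertain. It no longer passed with library totals (0.38) or the GC offset (0.28). RAD50 is uncertain too, with 76.9% of its exon length shared with another annotated gene on the same strand.

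Of the 5 end joining genes, those of the ligase complex fell and those of the end-binding kinase complex rose. LIG4, the ligase that seals the break (chromosome 13, 108859787 to 108870716), fell from 8.86, 9.59 and 9.23 to 2.60, 2.77 and 3.66 CPM (log2 fold change -1.61, SE 0.20, adjusted p = 4.41e-06). XRCC4, its scaffold (chromosome 5, 82373317 to 82649606), fell from 11.2, 11.1 and 11.3 to 5.52, 6.11 and 5.64 CPM (log2 fold change -0.96, SE 0.13, adjusted p = 1.54e-05), and to -0.28 without passing with the GC offset. PRKDC, the catalytic subunit of DNA-dependent protein kinase, rose from 382, 489 and 426 to 886, 816 and 727 CPM (log2 fold change 0.91, SE 0.14, adjusted p = 2.91e-05), the largest rise among the 57. All 3 treated samples of PRKDC were above the highest untreated sample. XRCC6 rose from 784, 769 and 778 to 1311, 1223 and 1285 CPM (log2 fold change 0.71, SE 0.09, adjusted p = 4.34e-06). XRCC5, named after its value was seen, rose by less (0.33, adjusted p = 0.00325) and turned to -0.09 with library totals, under which PRKDC (0.48) did not pass either.

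Base excision and single-strand break repair showed 1 fall and 3 rises among 9 genes. PARP2, which makes poly(ADP-ribose) at nicks (chromosome 14, 20811774 to 20826063), was at 57.4, 58.2 and 58.1 CPM in untreated cells and at 16.8, 12.9 and 14.5 CPM after GO-Rg3-DOX. It fell 3.94-fold (log2 fold change -1.98, SE 0.10, adjusted p = 7.25e-10). PARP1, the more abundant enzyme of the same activity (chromosome 1, 226547911 to 226595855), moved the other way, from 424, 406 and 408 to 700, 632 and 686 CPM (log2 fold change 0.70, SE 0.09, adjusted p = 9.1e-06). UNG, the uracil glycosylase, was at 116, 116 and 114 CPM and then at 177, 160 and 171 CPM (log2 fold change 0.55, SE 0.08, adjusted p = 3.03e-05). XRCC1, the scaffold of single-strand break repair, was at 38.4, 33.5 and 36.2 CPM and then at 54.1, 48.2 and 46.9 CPM (log2 fold change 0.46, SE 0.12, adjusted p = 0.00364), but lost its call in 7 of 15 alternative analyses. None of these 3 rises passed with library totals (PARP1 0.29, UNG 0.13, XRCC1 0.04). APEX1, MUTYH, LIG3, OGG1 and NTHL1 lay between -0.19 and 0.56 and did not pass.

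Nucleotide excision repair also held changes in both directions. ERCC4 and ERCC1 encode the partners of a single nuclease that cuts the damaged strand, and they moved apart. ERCC4 (chromosome 16, 14013995 to 14046205) fell from 13.7, 13.1 and 13.1 to 2.88, 3.63 and 3.47 CPM (log2 fold change -1.99, SE 0.15, adjusted p = 1.71e-08). ERCC1 (chromosome 19, 45910592 to 45982086) rose from 23.6, 20.4 and 22.7 to 44.5, 39.1 and 38 CPM (log2 fold change 0.86, SE 0.14, adjusted p = 5.8e-05), although 28.6% of its exon length lies under POLR1G on the other strand. DDB1 and DDB2 form the complex that recognises ultraviolet lesions, and both rose. DDB1 went from 690, 681 and 689 to 1258, 1103 and 1150 CPM (log2 fold change 0.77, SE 0.09, adjusted p = 1.77e-06). DDB2, a known p53 target (chromosome 11, 47236016 to 47260768), went from 11.6, 11.6 and 12 to 22.3, 20.4 and 19.2 CPM (log2 fold change 0.81, SE 0.10, adjusted p = 6.79e-06). The rises of ERCC1, DDB1 and DDB2 passed under every scaling tried, at 0.44, 0.35 and 0.39 with library totals. ERCC3, a helicase of TFIIH named after its value was seen, fell slightly (-0.39, adjusted p = 0.000808), and XPA, XPC, ERCC2 and ERCC5 did not pass (-0.33 to 0.37).

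**Figure D3:**
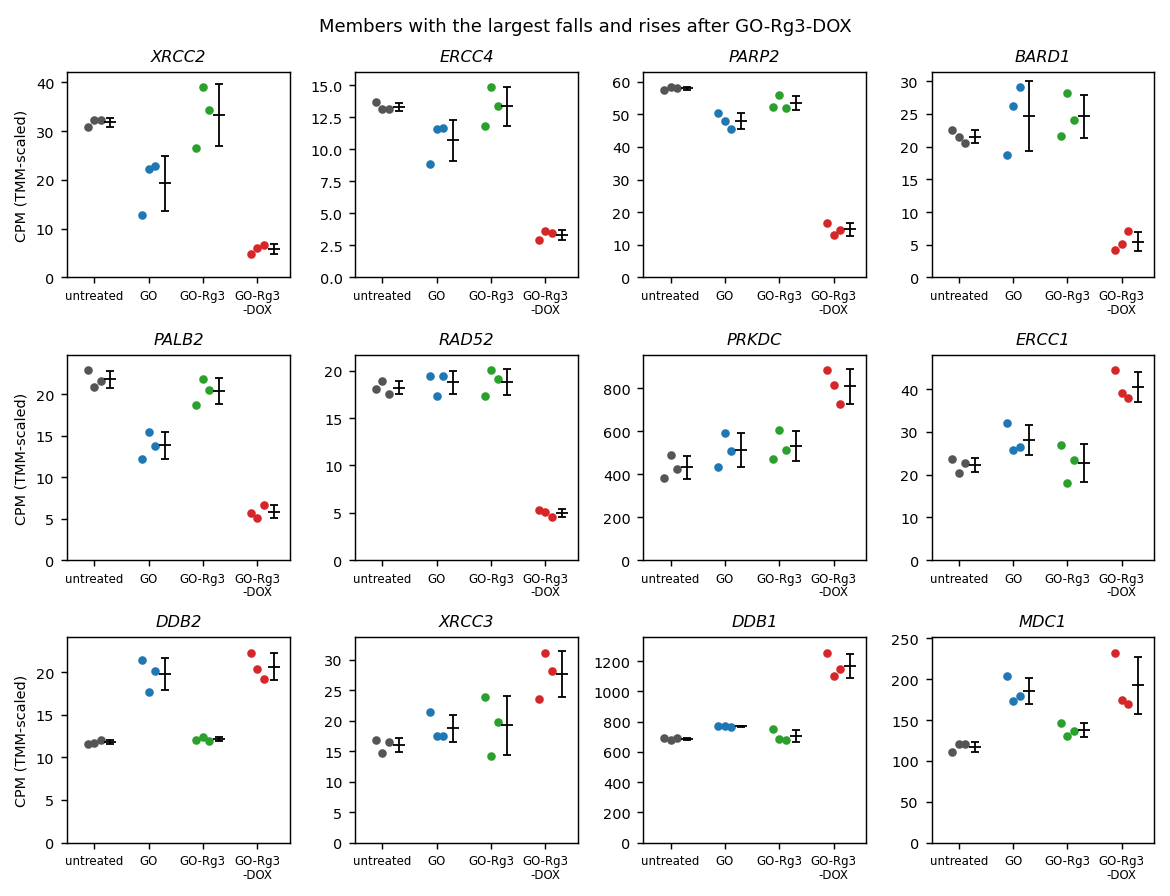
TMM-scaled CPM of the 6 genes with the largest falls and the 6 with the largest rises after GO-Rg3-DOX, on linear axes from 0. Points are the 3 samples of each group and the bar beside them is the mean ± SD; for XRCC2 the GO-Rg3-DOX points lie between 4.82 and 6.71 CPM and the untreated points between 30.8 and 32.4 CPM.

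Promoter sequences are shown for 4 of these genes, XRCC2 and ERCC4 as the largest falls among recombination and nucleotide excision genes and ERCC1 and DDB2 as the largest rises of the latter. Each is the 250 bases before the gene's annotated start in RefSeq (GRCh38.p14), 5′ to 3′ on the gene's strand: XRCC2 chr7:152676142-152676391, minus strand; ERCC4 chr16:13919904-13920153, plus strand; ERCC1 chr19:45451548-45451797, minus strand; DDB2 chr11:47214204-47214453, plus strand. The gene positions given above come from another annotation (GRCh37), and annotated starts can differ between sources. Whether both place the start of ERCC1 alike was not checked, so its window may not lie before the start given above. Capitals mark matches, on the printed strand or its complement, to 4 motifs. The GC box was searched as GGGCGG. The ETS motif was searched as CCGGAAG. The CCAAT box was searched by those letters. The E2F motif was searched in either of its forms, TTGGCGC for the first and TTCCCGC for the second.
XRCC2: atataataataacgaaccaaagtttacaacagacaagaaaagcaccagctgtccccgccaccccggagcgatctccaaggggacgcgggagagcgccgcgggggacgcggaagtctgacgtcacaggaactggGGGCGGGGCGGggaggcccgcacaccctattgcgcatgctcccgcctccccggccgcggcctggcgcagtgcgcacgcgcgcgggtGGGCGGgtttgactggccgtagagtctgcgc
ERCC4: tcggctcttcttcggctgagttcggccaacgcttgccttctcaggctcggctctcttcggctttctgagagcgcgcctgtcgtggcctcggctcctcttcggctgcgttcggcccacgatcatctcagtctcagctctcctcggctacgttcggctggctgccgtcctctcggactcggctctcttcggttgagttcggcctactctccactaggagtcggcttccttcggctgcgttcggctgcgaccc
ERCC1: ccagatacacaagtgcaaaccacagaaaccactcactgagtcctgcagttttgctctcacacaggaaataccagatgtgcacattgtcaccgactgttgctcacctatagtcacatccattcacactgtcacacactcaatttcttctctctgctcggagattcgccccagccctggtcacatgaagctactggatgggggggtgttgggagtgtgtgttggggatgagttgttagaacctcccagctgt
DDB2: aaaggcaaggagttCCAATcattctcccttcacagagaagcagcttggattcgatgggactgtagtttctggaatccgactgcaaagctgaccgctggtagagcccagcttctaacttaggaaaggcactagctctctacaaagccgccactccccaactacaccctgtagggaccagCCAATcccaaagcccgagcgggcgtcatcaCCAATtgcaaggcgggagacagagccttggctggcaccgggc
XRCC2 held 3 GC boxes, of which a pair overlap, DDB2 held 3 CCAAT boxes, and the letters of the 4 motifs were not found in the other windows. The promoter table held 53 of the 57 genes, without NBN, XRCC5, PRKDC and FANCI. Of these promoters, 67.9% held a GC box, where 42.3% of all 27305 promoters did, 26.4% held the ETS motif (8.82% of all), 39.6% CCAAT (33%) and 18.9% an E2F motif (7.95%). The median GC content was 64.4% for the repair genes and 58.0% for all promoters. The 27305 promoters were not limited to genes tested here, whereas all 57 repair genes had enough reads to be tested. A comparison with the promoters of tested genes only was not made. The GC box occurred in 75.0% of the 12 promoters of genes that rose and in 65.2% of the 23 of genes that fell, the ETS motif in 8.33% and 34.8% of them, CCAAT in 50.0% and 26.1%, and an E2F motif in 33.3% and 13%. These matches are a description of the letters only.

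Among the kinases that signal damage, 1 of 4 genes changed with TMM factors. CHEK1, the effector kinase of ATR (chromosome 11, 125495058 to 125546150), was at 48.9, 45.4 and 44 CPM in untreated cells and at 29.5, 29.8 and 29.8 CPM after GO-Rg3-DOX (log2 fold change -0.63, SE 0.10, adjusted p = 6.94e-05). It did not pass with the GC offset (-0.21). ATM (0.21), ATR (-0.44) and CHEK2 (0.12) did not pass with TMM factors. With the GC offset ATM (0.78, adjusted p = 7.67e-06) and CHEK2 (0.38, adjusted p = 0.000522) were higher by edgeR's test, and with library totals ATR was lower (-0.86, adjusted p = 0.000648).

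On the chromatin around breaks, the ubiquitin ligases fell and their upstream adaptor rose. RNF8, which starts the ubiquitin signal (chromosome 6, 37321755 to 37362510), fell from 16.4, 15.6 and 15.0 to 5.40, 6.72 and 4.99 CPM (log2 fold change -1.45, SE 0.14, adjusted p = 2.99e-07). RNF168, which extends it to histone H2A (chromosome 3, 196195654 to 196230639), fell from 34.8, 33.4 and 32.5 to 15.2, 14 and 11.2 CPM (log2 fold change -1.32, SE 0.12, adjusted p = 1.39e-07). MDC1, the adaptor that brings RNF8 to phosphorylated H2AX (chromosome 6, 30667584 to 30685224), was higher in all 3 treated samples, at 233, 175 and 170 against 110.6, 121 and 121 CPM (log2 fold change 0.71, SE 0.12, adjusted p = 7.49e-05), but did not pass with library totals (0.28). TP53BP1, which reads the resulting mark, was at 59.6, 60.5 and 57.4 CPM and then at 47.0, 46.1 and 41.7 CPM (log2 fold change -0.40, SE 0.09, adjusted p = 0.00134), and did not pass with the GC offset (-0.15). The histone gene H2AFX itself overlapped between the groups (0.03), but was lower with the GC offset (-0.66, adjusted p = 2.92e-05 by edgeR).

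Both mismatch repair genes and both translesion polymerases fell. MSH6, which recognises mismatches, fell from 110, 108.8 and 108.4 to 48.2, 49.8 and 57.6 CPM (log2 fold change -1.07, SE 0.12, adjusted p = 1.25e-06). PMS2, part of the complex that acts after recognition, fell from 12.4, 11.8 and 11.8 to 5.64, 6.33 and 7.05 CPM (log2 fold change -0.92, SE 0.14, adjusted p = 3.9e-05), but 12 pseudogenes carry its name and its count is uncertain. POLH, polymerase eta, went from 11.9, 12.5 and 12.3 to 4.12, 3.74 and 4.16 CPM (log2 fold change -1.61, SE 0.13, adjusted p = 3.6e-08). REV3L, the catalytic subunit of polymerase zeta, went from 16, 17.4 and 16.6 to 7.66, 7.48 and 7.63 CPM (log2 fold change -1.13, SE 0.15, adjusted p = 7.51e-06). These 4 genes kept their calls under each of the 15 alternatives.

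The 3 Fanconi anaemia genes rose with TMM factors, though none passed with library totals (FANCD2 0.09, FANCA 0.02, FANCI -0.10). FANCD2, the subunit that is monoubiquitinated at crosslinks, rose from 130, 131 and 132 to 193, 179 and 187 CPM (log2 fold change 0.51, SE 0.09, adjusted p = 8.37e-05). FANCA, of the ligase core complex, rose from 70.2, 72.7 and 73.8 to 92.4, 103.3 and 97.6 CPM (log2 fold change 0.44, SE 0.09, adjusted p = 0.000413). FANCI, the partner of FANCD2, rose from 110.7, 115 and 112 to 137, 135 and 149 CPM (log2 fold change 0.32, SE 0.10, adjusted p = 0.00971), close to the threshold.

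Of the topoisomerases and the enzymes that free trapped topoisomerase, 3 fell and 1 rose. TDP1, which removes topoisomerase I from DNA, fell from 26.5, 30.1 and 27.1 to 16.5, 14.2 and 15.0 CPM (log2 fold change -0.87, SE 0.11, adjusted p = 7.65e-06), and TOP3A, a topoisomerase that works with the BLM helicase, fell from 49.0, 50.9 and 50.9 to 30.4, 30.6 and 31.2 CPM (log2 fold change -0.71, SE 0.08, adjusted p = 2.73e-06). TOP2B, a form of topoisomerase II and a target of DOX, rose from 176, 170 and 164 to 271, 219 and 224 CPM (log2 fold change 0.48, SE 0.11, adjusted p = 0.00145). It did not pass with library totals (0.05). TDP2, which removes topoisomerase II, was at 173, 174 and 172 CPM in untreated cells and at 106, 132 and 134 CPM after GO-Rg3-DOX (log2 fold change -0.48, SE 0.12, adjusted p = 0.00317), and its sign turned with the GC offset (0.02). TOP1 did not pass with TMM factors (0.21) and was higher with the GC offset (0.61, adjusted p = 6.09e-06 by edgeR).

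The summed level of the 57 genes was 5732 to 5812 CPM in untreated cells and 7162 to 7803 CPM after GO-Rg3-DOX on the TMM scale. Most of that gap lay in XRCC6, DDB1, XRCC5, PRKDC and PARP1, the 5 genes with the most counts, which summed to 2886 to 2943 CPM and then to 4482 to 4954 CPM. The other 52 genes summed to 2846 to 2876 CPM and then to 2680 to 2849 CPM. As a share of all counts, without TMM factors, the 57 genes took 0.626% to 0.640% in untreated cells and 0.575% to 0.629% after GO-Rg3-DOX. These ranges overlapped, so the rise of the sum was seen on the TMM scale only.

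The genes that rose and fell after GO-Rg3-DOX also differed in level and base composition. The 15 that rose had a median of 25.7 CPM per kilobase in untreated cells and the 24 that fell one of 6.47, while over all genes tested the medians were 5.57 and 6.03. Median transcript GC content was 50.3% for those that rose and 42.3% for those that fell, against 55.4% and 44.4% over all genes. Across the 57 genes the log2 fold change had a Spearman rho of 0.57 with GC content (0.37 across 16622 genes with a transcript sequence) and of 0.50 with the untreated level per kilobase (-0.09 across 16585 genes). The link with GC content was not particular to GO-Rg3-DOX. For GO against untreated cells rho was also 0.57 (0.44 across the 16622 genes), and for GO-Rg3 against GO it was -0.64 (-0.44). For GO-Rg3 against untreated cells it was 0.14 (0.20). The points of each comparison share the same 6 samples and are not independent, so no p-value is given.

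**Figure D4:**
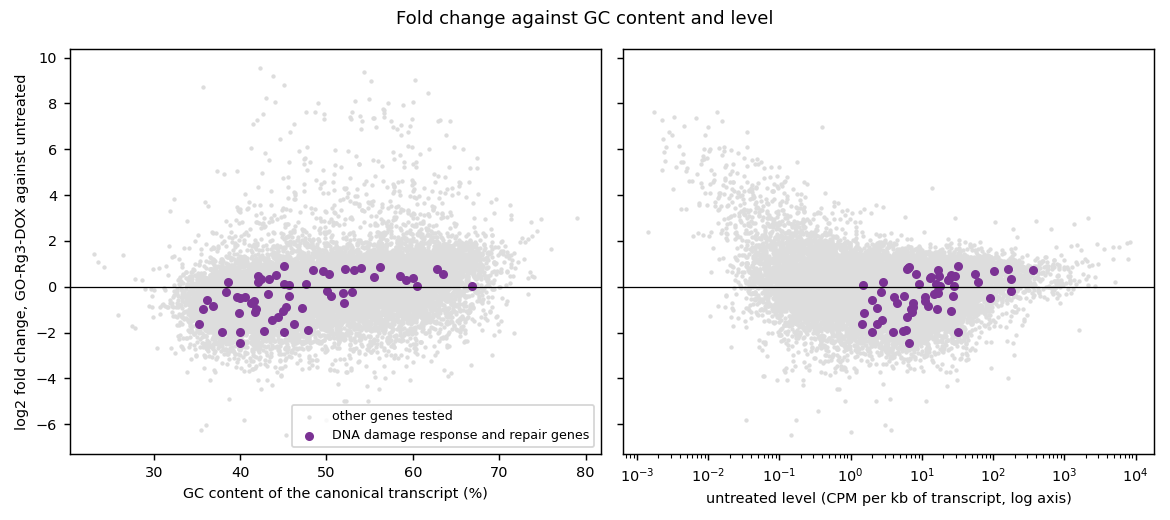
Log2 fold change after GO-Rg3-DOX against the GC content of the canonical transcript (left) and against the untreated level in CPM per kilobase on a log axis (right). Purple points are the 57 repair genes and grey points the other genes tested; the purple points climb from left to right in both panels, with Spearman rho of 0.57 and 0.50.

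GO at 400 µg/mL moved 19 of the 57 genes, mostly downward. It lowered 15 and raised 4 at an adjusted p below 0.01, and 38 did not pass. That is 26.3% lower and 7.02% higher, against 15.4% and 12.1% of all genes tested. A log2 change past 1 was met by 2 of them, both lower (3.51%, against 2.62% of all genes), and none was higher by as much, where 3.84% of all genes were. The median was -0.20 for the 57 genes and 0.01 for all genes. Without GO replicate 1 the counts were 12 lower and 3 higher, and without untreated replicate 1 they were 9 and 3. Library totals alone moved the median of all genes to -0.11 and gave 13 lower and 3 higher, with rises at 30.6% of the calls over all genes instead of 44%. The GC offset gave 17 lower and 6 higher, with rises at 44.4% of the calls over all genes. Its median was -0.12 for the 57 genes and -0.02 for all genes.

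The 2 largest falls after GO were the end-joining ligase complex. XRCC4 stood at 11.2, 11.1 and 11.3 CPM in untreated cells and at 4.35, 5.97 and 5.07 CPM after GO (log2 fold change -1.12, SE 0.13, adjusted p = 2.51e-05). LIG4 stood at 8.86, 9.59 and 9.23 CPM and at 2.94, 5.14 and 5.38 CPM (log2 fold change -1.02, SE 0.19, adjusted p = 0.000632), with GO replicate 1 the lowest. Both passed under each of the 15 alternatives, and the smallest falls of XRCC4 and LIG4, with the GC offset, were -0.76 and -0.66. TDP2 fell from 173, 174 and 172 to 73.7, 98.4 and 89.1 CPM (log2 fold change -0.99, SE 0.13, adjusted p = 3.77e-05) and passed under each of the 15 alternatives.

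Among the recombination genes, 5 of 13 fell after GO. RBBP8, which starts the resection of break ends, fell from 38.6, 36.2 and 35.6 to 14.4, 22.4 and 21.6 CPM (log2 fold change -0.91, SE 0.17, adjusted p = 0.000678). RAD51C fell from 42, 42.1 and 42.7 to 29.5, 26.5 and 22.9 CPM (log2 fold change -0.69, SE 0.11, adjusted p = 0.000213), and PALB2 from 22.9, 20.9 and 21.6 to 12.2, 15.5 and 13.8 CPM (log2 fold change -0.66, SE 0.12, adjusted p = 0.000637). XRCC2 went to 12.7, 22.3 and 22.8 CPM (log2 fold change -0.72, SE 0.19, adjusted p = 0.0073) and RAD50 from 38.8, 38.7 and 34.9 to 15.8, 28.6 and 27.2 CPM (log2 fold change -0.65, SE 0.18, adjusted p = 0.00873), both with GO replicate 1 well below the other 2. Without that sample neither passed, whereas the other 10 of the 12 genes with the largest passing changes did: XRCC4 (-1.02), TDP2 (-0.88), LIG4 (-0.81), RAD51C (-0.78), RBBP8 and RNF8 (both -0.74), DDB2 (0.68), XPA (-0.59), MDC1 (0.59) and PALB2 (-0.58). The values of the calls lost were -0.50 for XRCC2 (adjusted p = 0.0144 by edgeR) and -0.43 for RAD50 (adjusted p = 0.0134). BARD1, BRCA1 and RAD52, which fell after GO-Rg3-DOX, overlapped between GO and untreated cells (0.20, -0.04 and 0.04), though BARD1 was higher with the GC offset (0.51).

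Of the remaining genes named after GO, RNF8 and XPA fell and DDB2 and MDC1 rose. RNF8 was at 9.67, 9.79 and 9.0 CPM after GO against 16.4, 15.6 and 15.0 CPM (log2 fold change -0.72, SE 0.13, adjusted p = 0.000614). XPA, which checks the damaged strand in nucleotide excision, was at 13, 13.8 and 14.1 CPM against 19.7, 22.3 and 21.0 CPM (log2 fold change -0.62, SE 0.12, adjusted p = 0.000938). DDB2 was higher in every GO sample, at 21.4, 17.7 and 20.1 CPM against 11.6, 11.6 and 12 CPM (log2 fold change 0.75, SE 0.10, adjusted p = 7.99e-05). MDC1 was at 204, 173 and 179 CPM against 110.6, 121 and 121 CPM (log2 fold change 0.66, SE 0.12, adjusted p = 0.000512). The other genes that passed were CHEK1, CHEK2, XPC, ERCC3 and XRCC5, lower by 0.32 to 0.54 on the log2 scale, and RNF168 (0.58) and ERCC5 (0.48), which were higher. RNF168 was thus higher after GO and lower after GO-Rg3-DOX, at 53.3, 46.9 and 50.8 CPM and at 15.2, 14 and 11.2 CPM around an untreated level of 34.8, 33.4 and 32.5 CPM; both comparisons use the same untreated samples and the doses differ. None of the base excision, mismatch repair, Fanconi anaemia or translesion genes passed after GO with TMM factors. At an unadjusted p under 0.05 by edgeR there were 7 of these 16 and 32 of the 57. The share of all genes at that threshold was not counted, so these counts cannot set the repair genes apart from other genes. At an adjusted p below 0.01 by edgeR, 12.1% of all genes were higher and 15.4% lower. With the GC offset NTHL1 (-0.72), XRCC1 (-0.36), APEX1 (-0.31) and UNG (-0.25) were lower and FANCD2 (0.30) was higher, and with library totals PARP2 (-0.40) was lower.

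**Figure D5:**
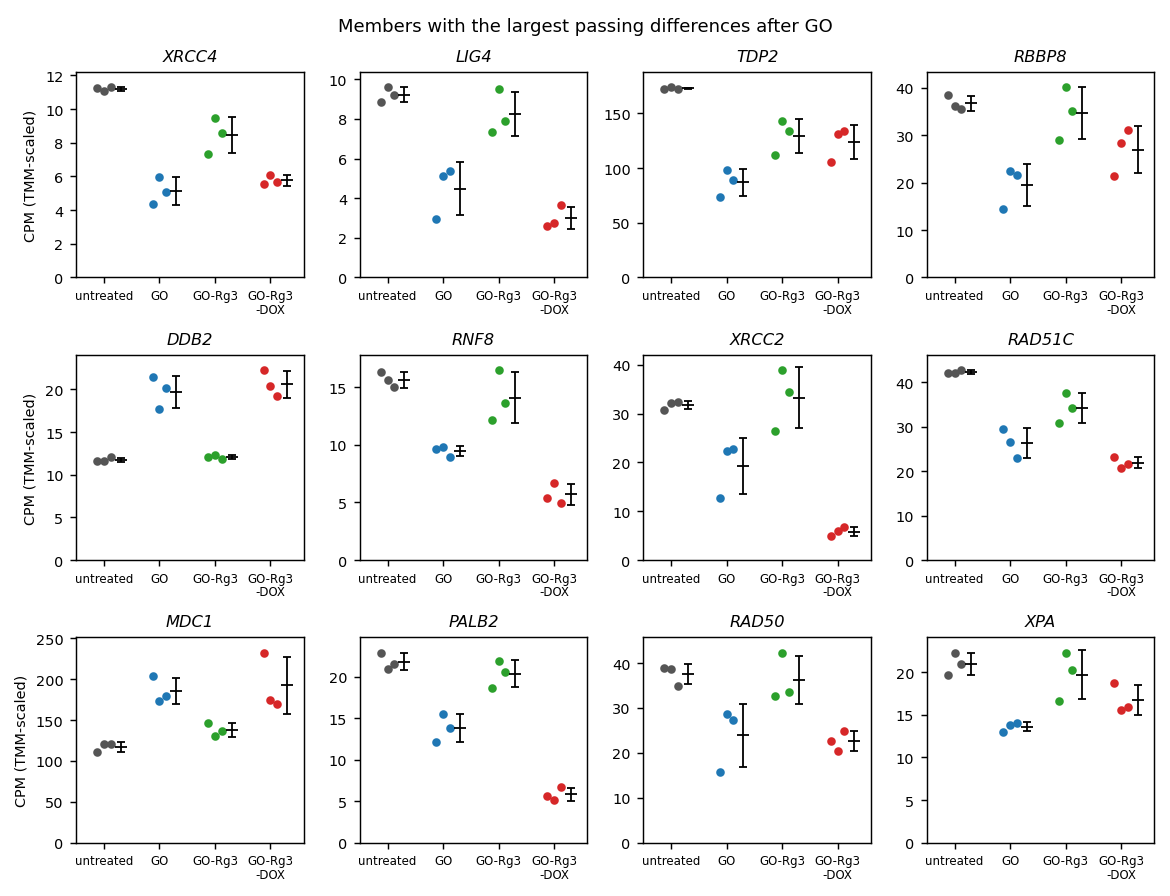
TMM-scaled CPM of the 12 genes with the largest passing changes after GO, on linear axes from 0. Points are the 3 samples of each group and the bar beside them is the mean ± SD; for XRCC4 the GO points lie between 4.35 and 5.97 CPM, below the untreated points at 11.1 to 11.3 CPM and the GO-Rg3 points at 7.35 to 9.48 CPM.

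GO-Rg3 at the same dose of 400 µg/mL gave no call among these genes. None of the 57 passed against untreated cells by edgeR's test, with changes from -0.42 to 0.30, and none passed by DESeq2, which called 2.59% of all genes with an adjusted p. By edgeR 0.0585% of all genes were higher and 0.105% lower, so that rises made up 35.7% of few calls, and 16.7% with library totals alone. A log2 change past 1 was met by none of the 57, where 0.0117% of all genes were higher and 0.0468% lower by as much. At an unadjusted p under 0.05 there were 7 of the 57 genes (13.4% of all genes). The largest changes were those of TDP2 (112, 143 and 134 CPM, log2 fold change -0.42, SE 0.12, adjusted p = 0.115) and XRCC4 (7.35, 9.48 and 8.60 CPM, log2 fold change -0.40, SE 0.13, adjusted p = 0.146), chosen after their values were seen. In both genes every GO-Rg3 sample lay below every untreated sample, but choosing the largest changes makes such a gap likely in advance. Other genes whose groups were apart without passing included CHEK2 and RAD51C, which were lower, and MDC1 and RNF168, which were higher. The share of all genes with such a gap was not counted.

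GO-Rg3 was then set against GO directly, at equal dose. In this comparison 9 of the 57 genes were higher with GO-Rg3 and 1 was lower (15.8% and 1.75%, against 7.33% and 6.25% of all genes), and 47 did not pass (-0.43 to 0.59). None was past a log2 change of 1, where 0.702% of all genes were higher and 2.07% lower by as much. The median was 0.16 for the 57 genes and -0.02 for all genes. With library totals alone the median of all genes was 0.12 and rises made up 71.2% of the calls over all genes instead of 54.0%, while the counts for the repair genes were again 9 and 1, of which 8 were genes called with TMM factors. XRCC2 (adjusted p = 0.0132 by edgeR) and MSH6 (adjusted p = 0.0128) no longer passed, and RAD51C (0.54) and XRCC5 (0.44) were then higher. The higher genes were LIG4 (7.35, 9.51 and 7.90 against 2.94, 5.14 and 5.38 CPM, log2 fold change 0.86, SE 0.19, adjusted p = 0.00433), RBBP8 (29.1, 40.1 and 35.1 against 14.4, 22.4 and 21.6 CPM, 0.83, SE 0.17, adjusted p = 0.0028) and XRCC2 (26.5, 39 and 34.4 against 12.7, 22.3 and 22.8 CPM, 0.78, SE 0.19, adjusted p = 0.00756). XRCC4 was higher by 0.72 (SE 0.14, adjusted p = 0.00167). RNF8, TDP2, PALB2, XPA and MSH6 were higher by 0.50 to 0.57. DDB2 was the gene that was lower, at 12.1, 12.3 and 11.9 CPM against 21.4, 17.7 and 20.1 CPM (log2 fold change -0.70, SE 0.10, adjusted p = 0.000314). With the GC offset 13 of the 57 were higher and 3 lower, against 1784 and 1240 of all genes tested. RNF168 and ERCC5 (both -0.42) were then lower as well. RAD54L (0.34), NTHL1 (0.61), UNG (0.29) and ERCC3 (0.38) were then higher.

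These differences between GO-Rg3 and GO rest on the same GO samples as the comparison of GO with untreated cells, and on few of them. The count of higher genes was 4 without GO replicate 1, 3 without GO replicate 3, 1 without GO-Rg3 replicate 2 and 1 without GO-Rg3 replicate 3, and 0 when the fit held only the 6 samples compared; 16 were higher by DESeq2. DDB2 passed without each sample in turn and had an adjusted p of 0.0101 with only those 6 samples.

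Further genes of the same pathways and 12 genes that p53 is known to induce were examined beside them, on a list drawn up with results of these data known, and 122 of the 123 in all could be tested. After GO-Rg3-DOX 18 were higher and 68 lower (14.8% and 55.7%, against 25.5% and 30.5% of all genes), with 5 and 41 past a log2 change of 1. The largest falls were those of NEIL3, a glycosylase of oxidised bases in single-stranded DNA, from 16.1, 15.7 and 15.8 to 1.52, 1.90 and 2.10 CPM (log2 fold change -3.10, SE 0.18, adjusted p = 1.25e-09), of FANCF, an adaptor of the Fanconi core complex, from 13.4, 13.3 and 12.9 to 2.27, 2.01 and 2.55 CPM (-2.54, SE 0.13, adjusted p = 3.92e-10), and of WEE1, the kinase that restrains entry into mitosis, from 54.3, 62.8 and 59.6 to 11.1, 10.2 and 13 CPM (-2.37, SE 0.12, adjusted p = 3.81e-10). The largest rises were those of NEIL1, another glycosylase, from 1.46, 1.85 and 2.17 to 4.70, 8.45 and 7.66 CPM (1.92, SE 0.21, adjusted p = 1.19e-06), of BRE, a subunit of a deubiquitinase complex at breaks, from 19.5, 17.6 and 18.3 to 70.7, 43.1 and 41.8 CPM (1.49, SE 0.21, adjusted p = 1.49e-05), and of FDXR, a mitochondrial reductase and p53 target, from 6.46, 6.97 and 7.28 to 16.6, 16.2 and 15.0 CPM (1.21, SE 0.17, adjusted p = 1.61e-05).

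By pathway, against 30.5% lower and 25.5% higher over all genes, 12 of 21 further recombination genes fell and 1 rose, 8 of 11 further checkpoint genes fell and 1 rose, and 5 of 7 further translesion genes fell and none rose. Of the 12 further genes of break-site chromatin 5 fell and 5 rose, of the 14 of base excision 7 fell and 3 rose, of the 17 of nucleotide excision 7 fell and 2 rose, and of the 5 of mismatch repair 2 fell and 1 rose. Of the 6 of end joining that were tested 4 fell and 1 rose, and of the 4 of topoisomerases and adduct removal 2 fell and 1 rose. Of the 13 further Fanconi genes 10 fell and none rose, whereas the 3 described above rose with TMM factors. Of the 12 genes that p53 induces, 3 rose, 6 fell and 3 did not pass. After GO 9 of the 122 were higher and 42 lower (7.38% and 34.4%, against 12.1% and 15.4% of all genes). After GO-Rg3 none passed by edgeR, where 0.0585% of all genes were higher and 0.105% lower. At an unadjusted p under 0.05 there were 16 of the 122 (13.4% of all genes). GO-Rg3 against GO gave 21 higher and 9 lower (17.2% and 7.38%, against 7.33% and 6.25% of all genes).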

How the data were processed

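Poly(A) RNA of 12 Huh7 samples was sequenced with a stranded kit. The authors deposited raw read counts per gene (featureCounts, GRCh37, per the labels), and the annotation release and the strand setting are not given in the sources used here. Total counts per sample limit precision only for the lowest genes. A gene was kept if 3 or more samples had 10 or more counts for it (17092 of 63677 genes). All 12 samples were fitted in 1 model with edgeR 4.0.16 (R 4.3.3; TMM factors, quasi-likelihood test, Benjamini-Hochberg adjustment over all genes tested), and a gene passed at an adjusted p below 0.01. DESeq2 1.42.0, other scalings, filters, a GC offset, a replicate block and leaving out each sample were alternatives. The fit was tested on simulated data. Gene coordinates, exons, transcript lengths and GC content came from a GENCODE annotation lifted to GRCh37, which all 57 genes matched.

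The genes and lists were chosen with earlier results of these data known. Genes named with full statistics were, for GO-Rg3-DOX, up to 4 per pathway with the largest passing change, for other comparisons up to 12, and for the further genes 3 rises and 3 falls at a mean of at least 1 CPM. Other genes named were chosen after their values were seen. MDC1 has 7 further rows, all at 0, which were left out. Exons of 15 of the 57 genes overlap another gene over more than 10% of their length, so their counts are less certain. Beside those named above, they include ERCC5 (33.0%, with BIVM-ERCC5 on the same strand). Overlapped on the other strand are TP53BP1 (28.8%), MSH6 (22.7%), FANCA (19.6%), XRCC1 (17.6%), ERCC4 (14.1%), CHEK1 (13.4%) and others. Pseudogenes share the names of CHEK2 (7), XRCC6 (5), PARP1 (2) and UNG (2) as well as PMS2.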

Additional observations from a re-analysis of the deposited data

How the results depend on the processing

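After GO-Rg3-DOX, 15 were higher and 24 lower; library totals alone gave 4 higher, and the other alternatives stayed within 1.5 times, with 12 to 14 higher and 23 to 24 lower when each sample was left out. FANCI reversed to -0.10 with library totals, and TDP2 to 0.016 with the GC offset and 0.013 with the GC offset plus replicate block. After GO (4 higher, 15 lower), the GC offset with replicate block gave 7 higher, and leaving out each sample gave 3 to 4 higher and 9 to 16 lower. For GO-Rg3 against untreated cells the GC offset with replicate block gave 1 lower and every other alternative 0. For GO-Rg3 against GO (9 higher, 1 lower), the counts were 17 and 4 at an adjusted p below 0.05, 14 and 2 under the replicate block, 15 and 3 under GC offset plus replicate block, and 0 and 0 with only the 6 samples compared. DESeq2 gave 16 higher, the GC offset 3 lower, no filter 2 lower, and leaving out each sample 1 to 12 higher and 1 lower. The causes of these differences were not tested.

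Samples that shared a replicate number had a mean correlation of deviations of 0.091 (-0.024 to 0.253), against -0.045 for other pairs. Deviations from a group mean cancel within each group, which ties these means together. They therefore cannot decide whether the numbers pair the samples. The main fit took no pairing. With the replicate block 4 were higher and 19 lower after GO, and 18 and 27 after GO-Rg3-DOX. Of the single-gene results under 15 alternatives each, 163 of 180 for GO, 445 of 480 for GO-Rg3-DOX and 108 of 150 for GO-Rg3 against GO kept their direction and side of the threshold. RAD50 after GO lost its call in 11 of the 15, FANCI after GO-Rg3-DOX in 8 and XRCC1 in 7. Differences in expression are limited by 3 samples a group, and no repair gene fell below 63 counts in any sample.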
